A study of Mus musculus with 2 samples.

Results

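The cells described here were the 484 induced macrophages with the highest level of Malat1, out of 6837 barcodes in the matrix. A barcode entered with at least 500 genes, at most 15% of its counts in mitochondrially encoded genes and at least 5000 counts, and 5207 barcodes met these limits. Of the 1630 left out, 1544 missed only the limit on counts. The cells were chosen by their measured Malat1 count: a cell was called Malat1-high when Malat1 held at least 400 of every 1000000 counts of the cell (CPM), and the comparison cells, 4459 Malat1-low cells, had Malat1 under 100 CPM. The remaining 264 cells lay between. Cells with Ube2c and Ccnb1 together at 600 CPM or more are called mitotic here, which held for 568 cells, and both groups were also compared among these alone.

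Induced macrophages (iMac) are mouse cells with macrophage features that were made from fibroblasts with c-Myc. The labels describe wild type cells, lifted with EDTA, from which a cDNA library and an oligo library were built on the DNBelab C4 droplet system. The barcode names tie no cell to either library, so all cells were treated as 1 sample. No other strain, treatment or time enters, and every group below is a set of cells from that sample, so no p-value is given and all intervals cover counting error only.

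Malat1 is a long noncoding RNA that stays in the nucleus, where it gathers in speckles together with splicing factors. Its primary transcript is cut near the 3′ end, and the mature RNA is protected there not by an added poly(A) tail but by U-rich stretches that fold back onto an encoded A-rich stretch as a triple helix. Neat1, its neighbour in the genome and the scaffold of nuclear paraspeckles, has a long form with the same kind of end.

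Both ends are shown because Neat1 had the largest ratio of all genes compared. Malat1 lies at chr19:5795690-5802672 on GRCm38 (ENSMUSG00000092341.3) and Neat1 at chr19:5824708-5845478 (ENSMUSG00000092274.3), both on the minus strand and each with a single exon block in GENCODE M21. The stretches printed are chr19:5795982-5796065 for Malat1 and chr19:5824708-5824797 for Neat1. Capitals mark every run of at least 10 bases that the last 400 bases of both transcripts share.
Malat1: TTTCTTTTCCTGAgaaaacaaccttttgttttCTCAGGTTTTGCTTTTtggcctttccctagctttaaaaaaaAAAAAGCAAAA
Neat1: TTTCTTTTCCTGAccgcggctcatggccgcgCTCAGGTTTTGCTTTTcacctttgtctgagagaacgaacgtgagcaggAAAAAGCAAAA
The 3 shared runs are TTTCTTTTCCTGA and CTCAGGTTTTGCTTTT, which are rich in U in the RNA, and AAAAAGCAAAA, the A-rich one. They stood in the same order in both RNAs. In the last 400 bases of the longest transcript of 19298 genes, searched on the transcript strand, the first pair was in Malat1 and Neat1 only (2 genes, 0.0104%), and the A-rich run in 34 genes (0.176%).

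Malat1 divided the cells unevenly. It had no count at all in 3521 of the 5207 cells (67.6%), all of them Malat1-low by the rule. In the Malat1-high cells its lowest, median and highest levels were 401, 1152 and 26457 CPM, with quartiles at 700 and 1932 CPM. These levels rested on 3 to 476 Malat1 counts per cell with a median of 40, and 18 cells had fewer than 5. The Malat1-high cells held 91.1% of all Malat1 counts (28200 of 30958) and 12.6% of the counts of all genes. The limit of 400 CPM did not fall in a gap, since 18 cells lay between 350 and 400 CPM and 19 between 400 and 450 CPM. No other marker came with the name of the cells, so Malat1 itself is no check of it.

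**Figure D1:**
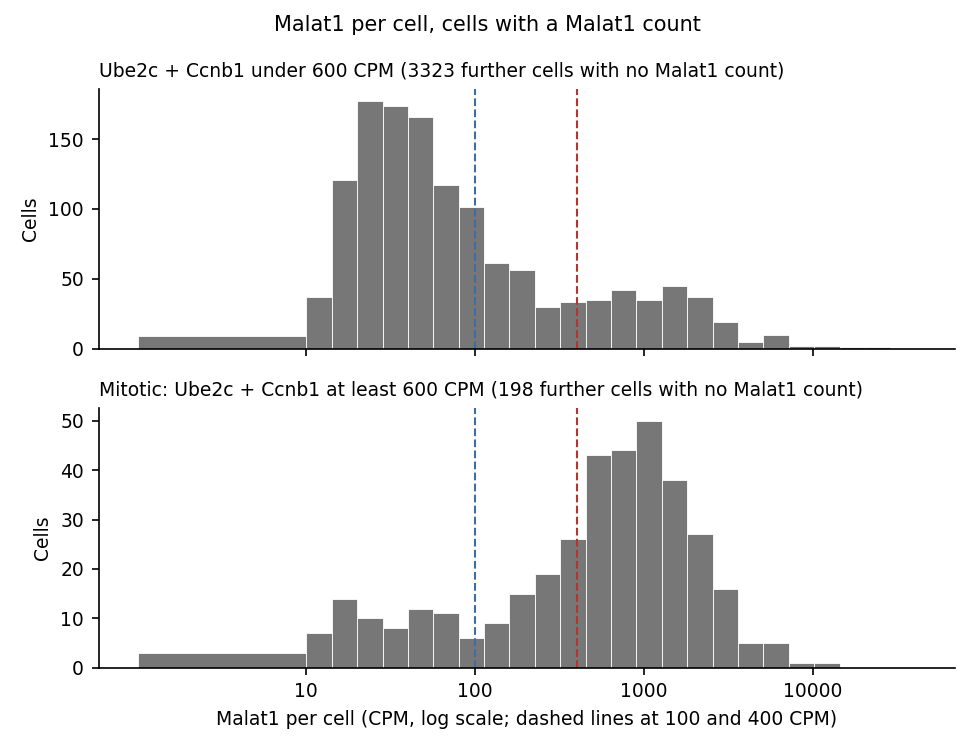
Number of cells (vertical axis) by Malat1 level per cell in CPM (horizontal axis, log scale) among cells with a Malat1 count, for cells with Ube2c plus Ccnb1 under 600 CPM (top) and for mitotic cells (bottom). Dashed lines mark 100 and 400 CPM; most mitotic cells with a Malat1 count lie to the right of 400 CPM, whereas most other cells with a count lie to the left of 100 CPM.

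The histograms of Malat1 per cell show 2 different shapes. Of the 568 mitotic cells, 239 were Malat1-high (42.1%, 95% Clopper-Pearson interval 38.0 to 46.3) and 266 Malat1-low, with 63 between. Of the 4639 other cells, 245 were Malat1-high (5.28%, 4.66 to 5.96). Mitotic cells were thus 49.4% of the Malat1-high and 5.97% of the Malat1-low cells. Ube2c loads ubiquitin for the anaphase-promoting complex, and Ccnb1 is cyclin B1. At least 1 count of either gene was found in 95.5% of the Malat1-high cells and in 75.8% of the Malat1-low cells.

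The share of Malat1-high cells climbed over a range of these 2 genes rather than at the limit of 600 CPM. It was 1.90% (22 of 1158) in cells with no count of either gene and 1.35% (31 of 2298) above 0 and under 200 CPM. It was 10.6% (85 of 803) from 200 to 400 CPM and 28.2% (107 of 380) from 400 to 600 CPM. Above the limit it was 40.4% (111 of 275) under 800 CPM and 43.7% (128 of 293) beyond. The intervals of the first pair of steps overlapped, as did those of the last pair, and the steps from 200 to 400 and from 400 to 600 CPM overlapped with no other.

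**Figure D2:**
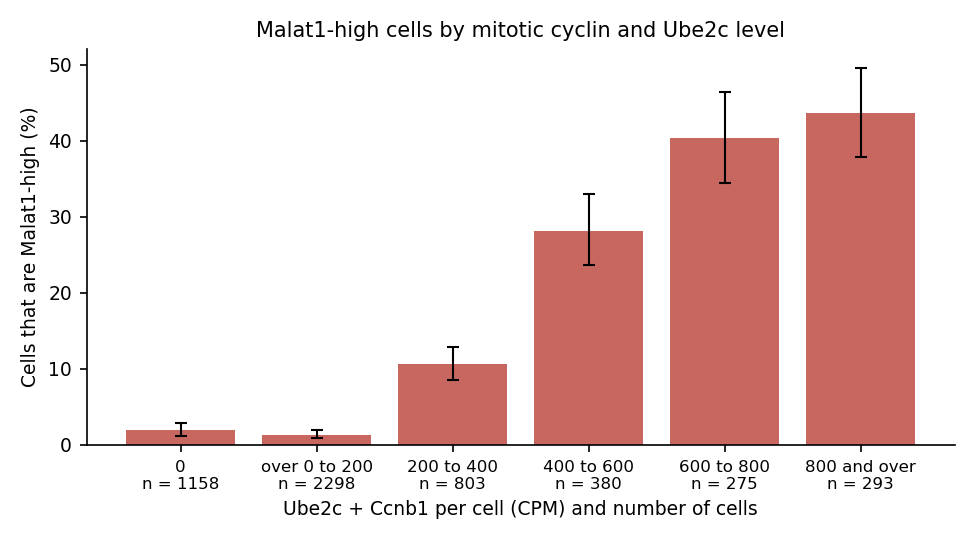
Share of cells that are Malat1-high (bars, %) in steps of Ube2c plus Ccnb1 per cell (CPM), with the number of cells under each bar and 95% Clopper-Pearson intervals as error bars. The share stays under 2% up to 200 CPM and reaches 43.7% in the last step.

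Malat1-high cells were somewhat deeper, with a median of 31978 counts against 24499, and among mitotic cells of 45204 against 27440. With all cells put into 3 depth classes of equal size, parted at 16344 and 34977 counts, the share of Malat1-high cells was 7.55%, 7.49% and 12.8% from the shallowest class to the deepest. Among mitotic cells it was 25.8%, 39.3% and 50.9%, and among other cells 6.14%, 4.20% and 5.50%. After each cell was thinned to 5000 counts, Malat1-high cells still held more genes, with a median of 1833.5 against 1602, and 1926 against 1655.5 among mitotic cells. The number that ends a barcode name made no such order, with 9.13%, 9.62%, 8.96% and 9.56% Malat1-high cells for 1, 2, 3 and 4 or more. Doublets were left in, and their part in these shares was not tested.

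Macrophage genes as a group differed little between Malat1-high and Malat1-low cells. The 20 macrophage genes had a median log2 ratio of 0.00 against Malat1-low cells, with 10 members higher and 10 lower, and the median over all genes compared was 0.24. The list median took either sign over the alternatives, from -0.22 to 0.06. Csf1r, the receptor of macrophage colony-stimulating factor, stood at 151 against 146 CPM. Lyz2, lysozyme, stood at 2683 against 3762 CPM. The largest differences in the list were in Mertk, a receptor for dying cells, at 28.7 against 9.39 CPM, in the scavenger receptor Msr1 at 290 against 172 CPM, and in Ms4a7 at 11.6 against 21.7 CPM. Mertk reached 10 CPM over all cells through the Malat1-high and intermediate cells. Among mitotic cells Ms4a7 stood at 11.5 against 11.7 CPM.

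Of 16 fibroblast markers 7 had a row, none reached 10 CPM over all cells, and their summed level was 4.21 CPM in Malat1-high and 2.77 CPM in Malat1-low cells. Lymphoid markers (10 of 17 with a row) summed to 4.16 and 1.93 CPM, and endothelial and epithelial markers to 7.41 and 5.95 CPM. Monocyte markers summed to 132 and 120 CPM, dendritic markers to 41.6 and 63.4 CPM, neutrophil and granule markers to 93.4 and 107 CPM, and erythroid, megakaryocyte and mast cell markers to 220 and 261 CPM. Pf4, platelet factor 4, carried nearly all of the last list (219 and 261 CPM), and Prtn3, a granule protease, most of the neutrophil list (83.5 and 97.5 CPM). Of the 4 monocyte markers tested 3 were higher, such as F13a1 at 56.6 against 38.6 CPM. Ly6c2 was lower, at 24.4 against 37.8 CPM. Among mitotic cells the monocyte markers summed to 136 and 96.5 CPM, with 3 again higher, 2 of them past 2-fold, and Ly6c2 lower. Of all genes 73.9% were higher, and among mitotic cells 73.3%, with 8.96% past 2-fold there.

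Against Malat1-low cells, 620 of 6644 genes (9.33%) were at least 2-fold higher in Malat1-high cells and 39 (0.587%) at least 2-fold lower. The genes compared were those at 10 CPM or more over all cells within the limits, Malat1 left out, and levels are from counts summed over the cells of a group. Most genes were slightly higher, 4910 of 6644. A gene low elsewhere could reach 10 CPM through the Malat1-high cells alone, and among the 6381 genes at 10 CPM or more in the Malat1-low cells themselves 461 (7.22%) were at least 2-fold higher. Leaving Malat1, ribosomal RNA-linked, ribosomal protein and mitochondrial counts out of the total moved the median of all genes from 0.24 to 0.16. Among mitotic cells 595 of 6642 genes (8.96%) were at least 2-fold higher and 28 (0.422%) at least 2-fold lower, with a median of 0.22. Among cells that were not mitotic, 319 (4.8%) were higher and 36 (0.542%) lower. The mitotic and the other cells share no cell, and 216 genes were at least 2-fold higher in both, which is 67.7% of the 319 and 36.3% of the 595. For genes at least 2-fold lower, 24 were shared, 66.7% of the 36 and 85.7% of the 28.

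**Figure D3:**
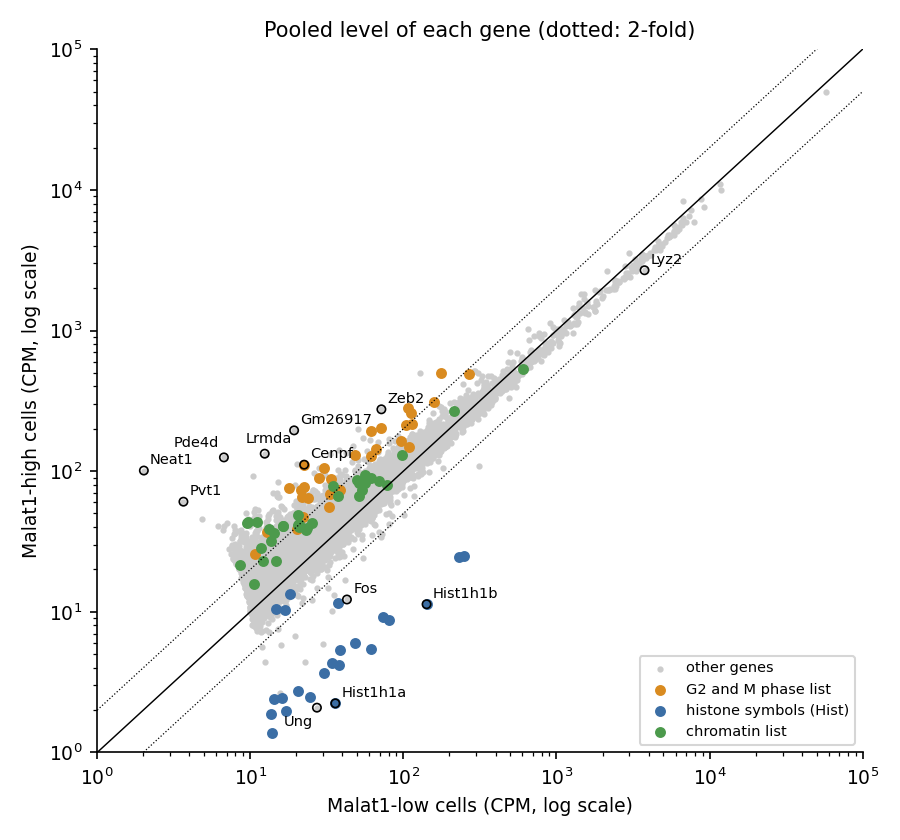
Pooled level of each gene compared in Malat1-high cells (vertical axis) against Malat1-low cells (horizontal axis), both in CPM on log scales, with the line of equality and dotted lines at 2-fold. Neat1, Pvt1 and Pde4d lie farthest above the lines and the 23 histone symbols (blue) all lie below the line of equality, 20 of them below the lower dotted line.

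Of the genes compared, Neat1 had the largest ratio. It was at 101 CPM in Malat1-high and 2.02 CPM in Malat1-low cells, a ratio of 50.1 (95% interval 44.0 to 57.2), and among mitotic cells at 110 and 1.97 CPM. Its log2 ratio was 5.43, 4.64 and 5.11 in the 3 depth classes. At 5000 counts per cell, 29.8% of Malat1-high and 1.35% of Malat1-low cells had a Neat1 count, and without thinning 68.4% and 4.93%. Neat1 counts were thus found more often in Malat1-high cells, though not in all of them. It reached 10 CPM over all cells through the Malat1-high and intermediate cells. Its large ratio is the reason it is described here, so these values add no support.

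Of the 24 nuclear noncoding RNAs listed besides Malat1, 20 had a row and 5 reached 10 CPM over all cells. All 5 were higher in Malat1-high cells, 3 of them past 2-fold. Neat1 and Pvt1 reached 10 CPM through the Malat1-high and intermediate cells, so this count says little about the list, and the 3 members at 10 CPM or more in Malat1-low cells had a median log2 ratio of 0.31, against 0.22 over all genes at that level there. Long noncoding RNAs as an annotated class were not higher over all cells, with a median of -0.05 over 70 genes and 32 of them higher. Among mitotic cells the median of these 70 was 0.10 with 47 higher, beside 0.22 and 73.3% for all genes. Pvt1, the noncoding neighbour of Myc, was at 60.7 against 3.66 CPM, a ratio of 16.6 (14.9 to 18.5). Gm26917 was at 195 against 19.3 CPM. It lies at chr17:39843013-39846341 and is also on the list of transcripts that resemble ribosomal RNA, with its neighbour Gm42418, which was at 49937 against 57446 CPM. Whether ribosomal RNA enters the counts of Gm26917 was not tested. The other tested pair differed little, since 2900097C17Rik was at 41.8 against 33.6 CPM and 0610010K14Rik at 79.7 against 71.0 CPM.

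Several list members fell under 10 CPM over all cells and are named here after their values were seen. Kcnq1ot1, which silences neighbouring genes on the paternal chromosome, had 1120 counts in Malat1-high and 124 in Malat1-low cells, or 56.9 and 0.951 CPM, a ratio of 59.8 (49.6 to 72.6). Xist, the RNA that coats the inactive X chromosome, was at 41.3 against 1.64 CPM, and Mir142hg, the host of a blood-cell microRNA, at 51.8 against 1.55 CPM. Firre stood at 11.8 against 0.637 CPM, Airn at 8.88 against 0.406 CPM and Ftx at 7.26 against 0.575 CPM. Tug1 stood closer, at 12.2 against 6.53 CPM, and Jpx at 10.9 against 4.01 CPM. Kcnq1ot1 and Airn overlap genes on the opposite strand, and whether the counting used strand is not given in the sources used here.

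Most protein-coding genes named by their ratio had a long span. Of these, only Lrmda, Wwox, Fgfr2 and Maml3 were at 10 CPM or more in Malat1-low cells themselves, and the others entered the comparison through the cells where they were higher. Pde4d, a phosphodiesterase that breaks down cyclic AMP, spans 1504 kb (chr13:108449948-109953461) and was at 125 against 6.73 CPM, a ratio of 18.6 (17.2 to 20.1). Lrmda spans 1036 kb and was at 133 against 12.4 CPM. Wwox, which spans 913 kb over a fragile site, was at 92.5 against 10.4 CPM. Rad51b, a DNA repair gene of 517 kb, was at 45.7 against 4.83 CPM. Each of these 4 was higher in every depth class, which the naming rule required, with log2 ratios between 2.39 and 4.25. The next by ratio were Nav2 (40.7 against 6.14 CPM), Vps13b (42.6 against 7.04 CPM), Gab2 (40.5 against 6.73 CPM), Cep128 (38.3 against 6.59 CPM), Fgfr2 (113 against 20.1 CPM), Maml3 (84.2 against 15.1 CPM), Aspm (50.5 against 9.36 CPM) and Fmn1 (40.6 against 7.88 CPM).

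Among mitotic cells Neat1, Pde4d, Pvt1, Gm26917, Wwox, Lrmda, Fmn1, Cers6, Rad51b and Fgfr2 had the largest ratios of the genes that were also higher over all cells. Pde4d was at 142 against 7.34 CPM there, Wwox at 103 against 10.4 CPM and Fmn1 at 48.8 against 5.59 CPM. Cers6, a ceramide synthase, was at 51.7 against 6.91 CPM. Aspm, a spindle pole gene that was 5.40-fold higher over all cells, was at 52.4 against 44.6 CPM among mitotic cells, a ratio of 1.17 (1.04 to 1.33).

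The span of a gene from its first to its last exon went with the ratio across the whole table. Of the 6644 genes 6611 had a gene model in GENCODE M21. The median log2 ratio was -0.04 for 1742 genes under 10 kb, 0.19 for 2277 genes of 10 to 30 kb, 0.47 for 1898 genes of 30 to 100 kb and 0.87 for 694 genes of 100 kb and over. Of the longest genes 668 were higher and 306 (44.1%) at least 2-fold higher, against 17 (0.976%) under 10 kb and 9.33% of all genes. Of the 596 that were at 10 CPM or more in Malat1-low cells themselves, 215 (36.1%) were past 2-fold, with a median of 0.77. Among mitotic cells the medians were -0.05, 0.17, 0.47 and 0.91, with 317 of the longest genes (45.7%) past 2-fold. Among the other cells they were -0.05, 0.11, 0.32 and 0.60, with 159 (22.9%) past 2-fold. With genes required to reach 10 CPM in the Malat1-low cells of each comparison, 250 of 616 (40.6%) of the longest genes were past 2-fold among mitotic cells and 86 of 591 (14.6%) among the others, against 7.31% and 3.20% of all genes at that level. The order over spans was thus the same in all 3 comparisons.

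**Figure D4:**
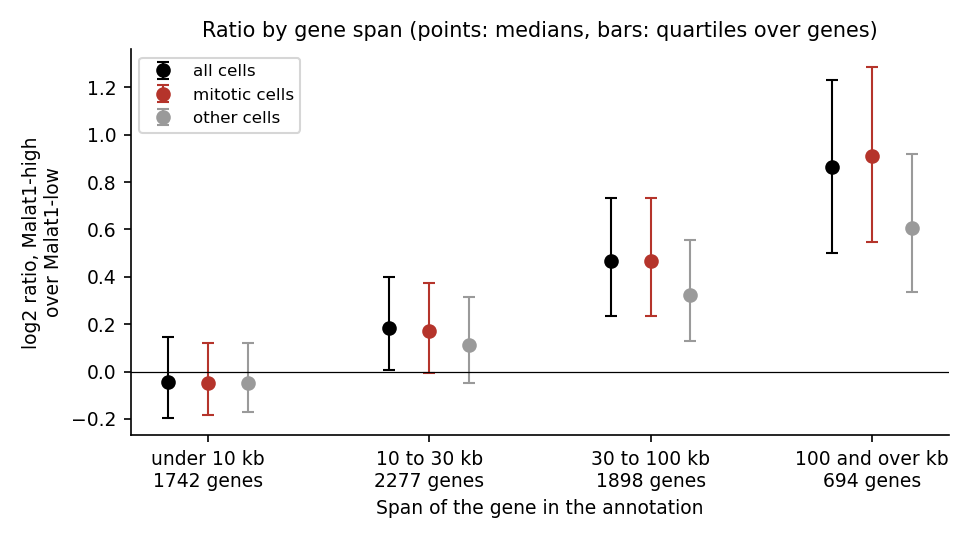
Median log2 ratio of Malat1-high over Malat1-low cells (vertical axis) by gene span in the annotation (horizontal axis, number of genes compared over all cells under each step), for all cells, mitotic cells and other cells. Bars are quartiles over genes; the medians climb from -0.04 to 0.87 over all cells and from -0.05 to 0.91 among mitotic cells.

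The number of exon blocks moved along with span. For genes of 100 kb and over, the median was 0.59 for 88 genes with up to 10 exon blocks and 0.91 for 606 genes with more. For genes under 10 kb it was -0.04 for 1638 genes and 0.01 for 104 genes. Within genes of up to 10 exon blocks the medians over the 4 steps of span were -0.04, 0.17, 0.38 and 0.59. The genes at least 2-fold higher had a median span of 99.4 kb and 18 exon blocks, against 22.0 kb and 10 over all genes, and 49.5% of them spanned 100 kb or more. The 39 genes at least 2-fold lower had a median span of 2.10 kb and 1 exon block. Whether the deposited counts include intron reads is not given in the sources used here, and the part of introns in these ratios was not tested.

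Seen per cell, genes of 100 kb and over, without the ribosomal RNA-linked ones, held a median of 3.84% of the counts of a Malat1-high cell, with quartiles at 2.95% and 4.94%. In Malat1-low cells the median was 2.37%, with quartiles at 1.90% and 2.75%. Among mitotic cells the medians were 4.47% and 2.42%, and among others 3.39% and 2.36%. Over all cells the quartiles of the 2 groups did not overlap, whereas among cells that were not mitotic they did (2.71% to 4.26% and 1.90% to 2.74%). The full ranges over all cells overlapped, from 1.13% to 31.3% in Malat1-high and from 0.888% to 9.95% in Malat1-low cells. A long span did not always go with a higher level. Camk1d, a calcium-dependent kinase of 421 kb, was at 400 against 504 CPM over all cells, at 342 against 501 CPM among mitotic cells, and at 500 against 505 CPM among the others.

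Lists drawn up for long messages were also mostly higher. The length of the messages was not measured, and the overlap of these lists with the genes of 100 kb and over was not counted. Of 34 chromatin regulators tested 33 were higher, 14 past 2-fold (median 0.80; among mitotic cells 33, 13 and 0.81). Of the 31 at 10 CPM or more in Malat1-low cells 30 were higher, 11 past 2-fold. Ash1l, a histone methyltransferase, was at 43.2 against 9.59 CPM, Setd5 at 42.8 against 9.56 CPM, and Arid1b, a subunit of the BAF remodelling complex, at 43.2 against 11.0 CPM. Of 27 very long messages for cytoplasmic and membrane proteins, 25 were higher and 12 past 2-fold (median 0.90; among mitotic cells 25, 13 and 0.97). Of the 23 at 10 CPM or more in Malat1-low cells 21 were higher and 8 past 2-fold. Over all genes, 73.9% were higher and 9.33% past 2-fold, and among mitotic cells 73.3% and 8.96%. Of the 6381 genes at 10 CPM or more in Malat1-low cells, 4647 were higher and 7.22% past 2-fold. Dock10, at 34.2 against 9.36 CPM, reached 10 CPM over all cells through the Malat1-high and intermediate cells, as did Ash1l and Setd5.

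Splicing factors and speckle proteins were higher in all 36 members tested, by less (median 0.50). Past 2-fold were 3 of them, 8.33% against 9.33% of all genes. Pnisr was at 50.2 against 19.3 CPM and Clk1, a kinase of splicing factors, at 35.8 against 14.3 CPM. Among mitotic cells 35 of 36 were higher (median 0.47; 4 past 2-fold). Nuclear pore and lamina genes had 15 of 17 higher and a median of 0.66, beside 73.9% and 0.24 over all genes. Among mitotic cells their median was 0.26, near the 0.22 of all genes, with 14 of 17 higher. Nup160 stood at 23.2 against 10.6 CPM.

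Among macrophage transcription factors 12 of 14 were higher and 3 past 2-fold (median 0.46), beside 73.9% and 9.33% of all genes. Among mitotic cells their median was 0.18, below the 0.22 of all genes. Yet 12 of 14 were again higher and 3 past 2-fold there, beside 73.3% and 8.96% of all genes. Of the 13 at 10 CPM or more in Malat1-low mitotic cells, 11 were higher and 2 past 2-fold. Zeb2, a zinc finger repressor kept on in tissue macrophages (chr2:44983632-45117395), was at 275 against 71.8 CPM, a ratio of 3.83 (3.70 to 3.96), and among mitotic cells at 328 against 65.0 CPM. At 5000 counts per cell 57.9% of Malat1-high and 24.9% of Malat1-low cells had a Zeb2 count, and without thinning 86.4% and 65.5%. Mitf was at 37.3 against 11.0 CPM, Fli1 at 87.1 against 38.2 CPM and Runx1 at 101 against 50.8 CPM.

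Replication-dependent histones stood lowest. Their messages are made in S phase, package new DNA, and end in a short stem-loop without a poly(A) tail. The stem-loops of the pair of histone genes with the most counts are shown because histone genes make up 20 of the 39 genes past 2-fold on the lower side. Capitals mark the 16 bases of stem and loop.
Hist1h2ae: acaaaGGCTCTTTTCAGAGCCattca
Hist1h1e: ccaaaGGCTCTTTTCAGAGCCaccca
Hist1h2ae (chr13:23570517-23571220) was at 25.0 CPM in Malat1-high and 249 CPM in Malat1-low cells, a ratio of 0.101 (0.0919 to 0.110), and among mitotic cells at 10.3 against 196 CPM. Hist1h1e was at 24.6 against 232 CPM and, among mitotic cells, at 11.4 against 180 CPM. Hist1h1b, a linker histone, was at 11.3 against 142 CPM over all cells and 5.21 against 94.9 CPM among mitotic cells. Its log2 ratios over the depth classes, whose shared direction the naming rule required, were -2.38, -2.61 and -4.01.

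All 23 histone symbols that reached 10 CPM were lower, 20 of them past 2-fold over all cells (median -2.72) and 21 among mitotic cells (median -3.11). Of all genes, 0.587% and 0.422% were past 2-fold lower in these comparisons. Of the 20 histones listed 16 were tested, all of them lower and 14 past 2-fold. Hist1h1a stood at 2.23 against 35.9 CPM, Hist1h2ab at 5.48 against 61.5 CPM and Hist1h3c at 8.68 against 81.0 CPM. Of the genes whose transcript holds the stem-loop 15 were tested, and 13 were lower (12 past 2-fold) and 2 higher. At 5000 counts per cell 6.20% of Malat1-high and 34.1% of Malat1-low cells had a Hist1h1b count, and without thinning 16.9% and 54.6%. Many histone genes are near copies of each other, so how reads were shared among them, or dropped, is uncertain. Among cells with no count of Ube2c or Ccnb1, where 22 were Malat1-high, the listed histones had a median of -0.17, with ratios of 0.660 for Hist1h1b and 1.004 for Hist1h2ae.

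The S phase list was lower as well, in 18 of 20 genes (median -0.68, 4 past 2-fold). Of all genes compared, 1734 of 6644 were lower and 0.587% past 2-fold lower. Ung, which cuts uracil out of new DNA, was at 2.08 against 27.2 CPM, Cdc6, which loads the replicative helicase, at 5.79 against 15.9 CPM, and the helicase subunits Mcm3 at 34.3 against 71.5 CPM and Mcm2 at 35.6 against 72.2 CPM. The S phase genes and the histones parted among mitotic cells. There the S phase median was -0.11, and Ung was at 1.44 CPM (18 counts) against 1.97 CPM (18 counts), a ratio of 0.731 (0.359 to 1.49), while the 16 listed histones had a median of -3.07.

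G2 and M phase genes other than Ube2c and Ccnb1 were higher in all 31 members tested, 22 past 2-fold (median 1.20). Of all genes, 73.9% were higher and 9.33% past 2-fold. Cenpf, a kinetochore protein, was at 111 against 22.5 CPM, Ckap2, a spindle protein, at 76.3 against 17.9 CPM, and Kif23, a motor of cell division, at 105 against 30.5 CPM. Among mitotic cells the list median was 0.04, with 18 of 31 higher and none past 2-fold, beside 73.3% and 8.96% of all genes. Cenpf was at 129 against 121 CPM among these cells, a ratio of 1.07 (0.992 to 1.16). A few differed in either direction there. Ckap2 stood at 87.8 against 50.2 CPM and cyclin B2, Ccnb2, at 136 against 97.1 CPM, while Top2a, which untangles DNA, stood at 177 against 272 CPM, Mki67 at 183 against 232 CPM and cyclin F, Ccnf, at 43.6 against 67.8 CPM. Ube2c and Ccnb1, which chose the mitotic cells, were at 624 against 652 CPM and 213 against 192 CPM.

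Malat1-high cells that were not mitotic by the rule resembled mitotic cells in part. The limit did not make them alike in Ube2c and Ccnb1, whose median was 379 CPM in these cells and 85.8 CPM in Malat1-low cells that were not mitotic. Their Cenpf was at 79.9 CPM, against 15.1 CPM in Malat1-low cells that were not mitotic and 121 CPM in Malat1-low mitotic cells. Their Cdc20, which activates the anaphase-promoting complex, was at 187 CPM, against 61.9 and 201 CPM in these 2 groups. All 31 G2 and M phase genes were higher in them than in the other Malat1-low cells (median 1.28, 20 past 2-fold). Of all genes in this comparison, 4594 of 6642 were higher and 4.8% past 2-fold. Their histones were again lower, with a median of -2.23 and Hist1h1b at 21.9 against 145 CPM. Neat1 was at 85.1 against 2.02 CPM and Pde4d at 96.1 against 6.68 CPM in this comparison.

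**Figure D5:**
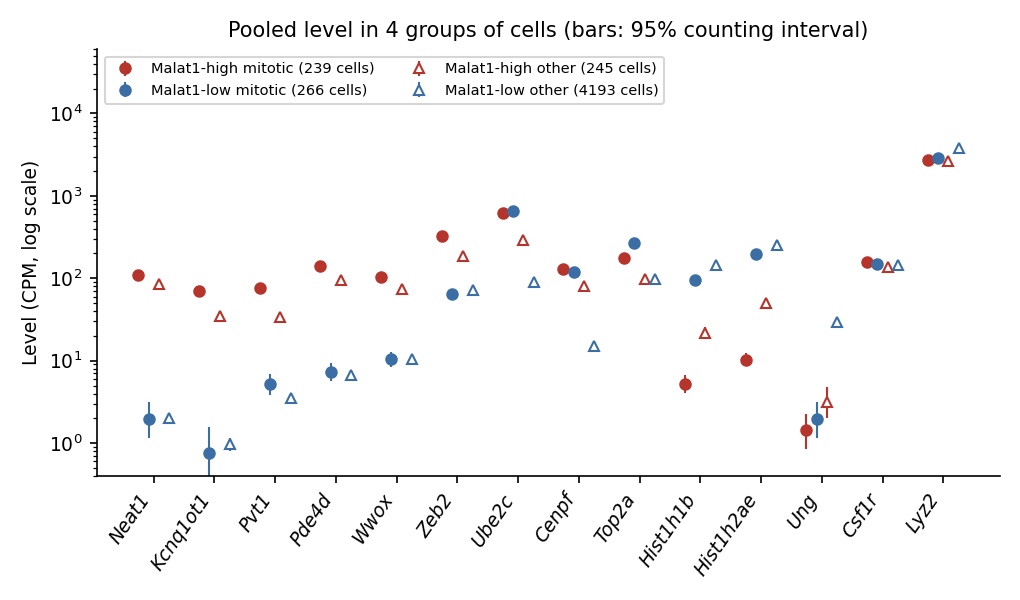
Pooled level (CPM, log scale) of 14 genes in Malat1-high and Malat1-low cells, each parted into mitotic and other cells; bars are 95% Poisson intervals. For Neat1, Kcnq1ot1, Pvt1, Pde4d and Wwox both Malat1-high groups lie far above both Malat1-low groups, for Cenpf and Ube2c the Malat1-low cells that are not mitotic lie lowest, and for Hist1h1b and Hist1h2ae the Malat1-high mitotic cells lie lowest.

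The levels ran mostly in order over steps of Malat1, also below the limit that chose the cells. From under 100 CPM of Malat1 over 100 to 200, 200 to 400 and 400 to 800 to at least 800 CPM, Neat1 was at 2.02, 22.5, 51.3, 57.4 and 116 CPM. Pde4d was at 6.73, 26.0, 58.8, 97.9 and 135 CPM over the same steps, and Kcnq1ot1 at 0.951, 15.8, 32.9, 45.2 and 60.9 CPM. The 20 listed histones summed to 1098, 656, 241, 157 and 137 CPM. The summed G2 and M phase list was at 1992, 2867, 3723, 4243 and 4685 CPM. The pooled levels just under the limit thus lay between the groups for these genes and lists, of which the genes were picked for their ratio. Camk1d ran out of order, at 504, 720, 462, 334 and 423 CPM. The 264 cells from 100 to 400 CPM had a median of 2 Malat1 counts, with quartiles at 1 and 6, so 1 count could place a cell there. Whether these steps mix cells of both groups was not tested. The share of mitotic cells was 5.97%, 13.9%, 38.7%, 51.7% and 48.4%, and the median depth 24499, 9717, 23250, 28410 and 34222 counts, so neither was alike over the steps.

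The 3 genes with the largest ratios were also counted cell by cell. They were chosen for their level in Malat1-high cells, so the shares describe them and add no support. Neat1, Pde4d and Pvt1 all had a count in 200 of the 484 Malat1-high cells (41.3%) and in 8 of the 4459 Malat1-low cells (0.179%). None of the 3 had a count in 10.7% of Malat1-high and 73.2% of Malat1-low cells. Among mitotic cells all 3 had a count in 59.4% of Malat1-high and 0.376% of Malat1-low cells. These shares are at full depth, which was higher in Malat1-high cells.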

How the data were processed

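Single-cell RNA was measured in 1 matrix of 20034 genes and 6837 barcodes. The deposited matrix holds raw counts in whole numbers, and PISA 0.12 wrote it, per the file headers. Per the submitters' processing notes, Cell Ranger and mm10 were used, in roles left unsaid. Aligner, annotation, cell calling and whether a count is a unique molecular identifier: not given in the sources used here.

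Counts were summed over the cells of a group and scaled to CPM with Python 3.11.15, numpy 2.4.6, scipy 1.17.1 and pandas 2.3.3. Log2 ratios have a pseudocount of 1 CPM, and a gene is past 2-fold by its CPM ratio. Ratios have exact conditional binomial intervals, levels exact Poisson and shares Clopper-Pearson intervals, all at 95%. The matrix held 160606727 counts, 19701993 of them in Malat1-high and 130392364 in Malat1-low cells within the limits. With 1 sample there was no test. No doublet caller was run. Cells were thinned to 5000 counts for shares. Only the pooled comparison of genes and its ratio intervals were tested on simulated data, with pooled Poisson counts and no spread between cells. The choice of cells, thinning, shares, lists and spans were not tested in this way. Gene spans, coordinates and sequences are from GENCODE M21 on GRCm38, which has 19659 of the 20034 symbols.

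The cells, the 31 gene lists (596 genes) and the rules were chosen with earlier results of these data known. Named genes are the 15 with the largest and the 10 with the smallest ratio whose direction held in each of 3 depth classes. Among mitotic cells they are the 10 largest and 5 smallest with the same direction as over all cells, without a condition on depth. Also named are 2 to 4 per list with the largest ratios, and Neat1, Camk1d, Ube2c, Ccnb1 and Malat1. Of all named genes, only those that show a group are printed. Further members of lists (Csf1r, Lyz2, Cdc20, Top2a, Mki67, the nuclear RNAs under 10 CPM) were named after their values were seen. Alternatives were other limits on Malat1, counts and mitochondrial share, cells weighted equally, another denominator, pseudocount, gene filter and fold, thinning, depth classes and cells without Ube2c or Ccnb1.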

Additional observations from a re-analysis of the deposited data

How the results depend on the processing

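Limits: there is 1 sample and no replicate, so neither spread between cultures nor chance can be read from these ratios. If the counts are of reads and not molecules, the intervals are too narrow. No paired analysis was possible because the barcodes carry no sample or replicate number. Of the counts of cells and genes under the alternatives, 103 stayed within 1.5 times the main value and 18 did not; the cause was not tested. Of the 20 gene ratios and 22 list medians followed, 16 and 17 kept one direction throughout.

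With CPM taken without Malat1, ribosomal RNA-linked, ribosomal protein and mitochondrial counts, 61 genes were at least 2-fold lower in place of 39. With genes from 1 CPM on, where more genes are compared, 1795 genes were higher and 116 lower, 703 of the higher ones spanning 100 kb or more, and among mitotic cells 1974, 103 and 736. At 1.5-fold, 1617 genes were higher and 76 lower, with 496 long ones, and among mitotic cells 1524, 62 and 514. With cells thinned to 5000 counts 66 genes were lower among mitotic cells in place of 28. Without mitotic cells, an alternative added after the data were seen, 321 genes were higher and 159 of them long. This repeats the comparison of cells that were not mitotic, with Ube2c and Ccnb1 kept among the genes, so it is no separate check.

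Only 22 Malat1-high cells with 223499 counts in all had no count of Ube2c or Ccnb1. Among such cells 1175 genes were higher and 767 lower, Hist1h2ae had a ratio of 1.004 and Fos of 2.18 in place of 0.286. The early response list had a median of 0.088 in place of -0.58, and all genes there a median of 0.058. No mitotic comparison exists there. The mitochondrially encoded list turned sign with depth, from 0.88 in the shallowest depth class over -0.00 to -0.68 in the deepest. The ratio of Neat1 ran from 38.1 to 159 over all cells and from 19.5 to 64.1 among mitotic cells.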

Other observations

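All 33 cytosolic ribosomal protein genes were lower in Malat1-high than in Malat1-low cells (median log2 ratio -0.20, and -0.19 among mitotic cells with 32 lower), none past 2-fold. Of all genes compared, 1734 of 6644 were lower, and among mitotic cells 1776 of 6642. Rplp1 was at 5939 against 7931 CPM. Per cell, ribosomal protein genes held a median of 28.7% of the counts against 33.2%, and the share of mitochondrially encoded genes was 0.590% against 0.607%. Pooled over cells, all 11 mitochondrially encoded genes tested were lower (median -0.41), with mt-Nd2 at 119 against 168 CPM, but this direction turned in the shallowest depth class. Of 28 nuclear-encoded respiratory chain genes 25 were lower (median -0.20). Actb, cytoplasmic actin, was higher, at 8328 against 6662 CPM.

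Immediate early genes were lower in 11 of 13 members (median -0.58, 3 past 2-fold), and among mitotic cells also in 11 of 13 (median -0.41). Of all genes, 1734 of 6644 were lower and 0.587% past 2-fold lower, and among mitotic cells 1776 of 6642 were lower. Fos stood at 12.2 against 42.8 CPM, Egr1 at 4.42 against 12.6 CPM and Atf3 at 14.8 against 32.2 CPM. Among cells with no count of Ube2c or Ccnb1, 22 of them Malat1-high, the list median was 0.088, near the 0.058 of all genes there. Lists of interferon response, heat shock, lysosomal and lipid-associated genes had medians of -0.01, 0.00, -0.10 and -0.12, and none of the 8, 9, 20 and 12 members tested was past 2-fold in either direction.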
